A study of Mus musculus with 16 samples.

Results

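The 7 genes described here encode complement receptors, chains of complement-binding integrins and a complement regulator: C3ar1, C5ar1, C5ar2, Itgam, Itgax, Itgb2 and Cr1l. They were taken by symbol from the 30819 genes of the deposited matrix and all 7 were found. RNA had been sequenced from macrophages and monocytes sorted out of subcutaneous MN/MCA1 tumours, a transplanted mouse sarcoma, 21 days after the tumour cells were given to C3 knockout and C3 wild-type mice of the strain C57BL/6J. The 4 groups were macrophages of C3 knockout mice, macrophages of wild-type mice, monocytes of C3 knockout mice and monocytes of wild-type mice, with 4 libraries each. Knockout mice are numbered 6, 7, 8 and 9 and wild-type mice 1, 2, 3 and 4, and each of the 8 mice gave a macrophage and a monocyte library. Every cell had been sorted as positive for CD45 and CD11b and negative for Ly6G and CD11c. Macrophages were also F4/80+ and Ly6C-, and monocytes Ly6C+ and F4/80-. The sort itself thus used proteins of these genes: Itgam encodes CD11b, on which all cells were kept, and Itgax encodes CD11c, on which all were discarded. The labels do not give the kind of C3 allele, the age or the sex, and the tumour cells are not said to lack C3.

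Complement is a set of plasma proteins that cut one another in turn, and the cuts converge on C3. Cleavage of C3 releases the small peptide C3a and leaves C3b on the target surface, where it helps to cut C5 and is itself trimmed to iC3b. C3ar1 encodes the receptor of C3a and C5ar1 the receptor of C5a, both coupled to G proteins. C5ar2 encodes a second C5a receptor that does not couple to G proteins but recruits arrestins. Itgam and Itgax encode the alpha chains CD11b and CD11c, and each pairs with the beta2 chain CD18, encoded by Itgb2. The CD11b pair is complement receptor 3 and the CD11c pair complement receptor 4, and both bind iC3b. Cr1l encodes Crry, a membrane regulator of rodents that binds C3b and C4b and limits C3 cleavage on the cell's own surface. Macrophages and monocytes are among the cells best known for these receptors.

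Of the 7 genes, C5ar2 and Itgam were called lower in C3 knockout cells of both types, and Itgax in knockout monocytes. Only the C5ar2 calls held in all 14 alternatives to the main fit. The Itgax call was lost in 6 of 14, and that of Itgam in 1 in macrophages and 2 in monocytes. None was called higher in either cell type. Over all genes tested, 3.13% of 12568 were called lower in knockout macrophages and 1.92% of 12867 in knockout monocytes. The bases before the start of these 3 genes are shown because 2 of them, Itgam and Itgax, are neighbours that both fell in knockout monocytes. Sequences are those of RefSeq on GRCm38.p6, 250 bases ending just before the first base of the transcript and read along the strand of the gene. Capitals mark matches on either strand to GAGGAA, the core bound by PU.1 (a master factor of myeloid genes), or to TGANTCA, the site of AP-1 factors. Both start sites that RefSeq gives for C5ar2 are shown. Their places are chr7:128062390-128062639 and chr7:128129300-128129549 on the plus strand, and chr7:16244155-16244404 and chr7:16242332-16242581 on the minus strand for start sites 1 and 2 of C5ar2.

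Itgam: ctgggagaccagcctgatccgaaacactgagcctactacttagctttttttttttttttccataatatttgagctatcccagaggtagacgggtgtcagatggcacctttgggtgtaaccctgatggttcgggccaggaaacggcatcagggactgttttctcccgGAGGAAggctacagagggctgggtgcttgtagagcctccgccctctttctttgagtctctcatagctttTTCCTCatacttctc

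Itgax: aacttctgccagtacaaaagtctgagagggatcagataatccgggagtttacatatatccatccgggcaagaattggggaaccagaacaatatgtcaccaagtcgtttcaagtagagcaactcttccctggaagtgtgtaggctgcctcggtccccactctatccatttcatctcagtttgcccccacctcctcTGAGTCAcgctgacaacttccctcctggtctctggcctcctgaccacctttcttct

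C5ar2 start site 1: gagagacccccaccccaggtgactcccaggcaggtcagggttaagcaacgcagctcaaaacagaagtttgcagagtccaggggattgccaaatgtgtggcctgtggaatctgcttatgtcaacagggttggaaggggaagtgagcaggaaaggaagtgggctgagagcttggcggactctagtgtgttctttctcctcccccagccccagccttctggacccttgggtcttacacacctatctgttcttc

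C5ar2 start site 2: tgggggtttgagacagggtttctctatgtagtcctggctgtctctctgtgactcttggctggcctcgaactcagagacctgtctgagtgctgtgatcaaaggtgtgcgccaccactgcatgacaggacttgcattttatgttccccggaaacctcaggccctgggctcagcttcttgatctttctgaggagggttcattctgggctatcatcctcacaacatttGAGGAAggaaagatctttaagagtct

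Itgam held GAGGAA at bases -84 to -79 and its reverse complement TTCCTC at -15 to -10, counted back from the start. Itgax held no match to that core, but had TGAGTCA at -56 to -50. Start site 2 of C5ar2 had GAGGAA at -26 to -21, and start site 1 had neither motif. Among 32851 windows of the same length, 23.3% held the PU.1 core and 6.75% the AP-1 site. Single matches to the PU.1 core are thus common, and those to the AP-1 site less so. The table held 6 of the 7 genes. Of the other 3 matched by name, C3ar1 had TGACTCA at -22 to -16, while C5ar1 and Cr1l had no match to either. A match describes the letters and says nothing of a factor at the gene.

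Libraries held 18691196 to 29034390 reads, recovered by inverting the deposited log2 values, and each of the 7 genes had between 283 and 43858 reads in every library. Values given per library are normalized reads, that is, recovered reads scaled by each library's size factor. Differences on the log2 scale are differences of the deposited values, a regularized log2 that draws values together and so understates fold changes. Differences were tested with limma over all genes that passed a filter on low values. Calls were made where p, adjusted by Benjamini and Hochberg's method over those genes, was under 0.05. Nothing says that the mice were housed, injected or sorted separately, so the p-values measure only the spread between these animals. In bulk RNA, fewer cells of a kind and less RNA per cell cannot be told apart. The genes of the gate followed the labels: Ly6c2 had 5.212 and 10.26 normalized reads on average in knockout and wild-type macrophages, against 14507 and 16216 in knockout and wild-type monocytes. Adgre1, which encodes F4/80, averaged 26349 and 27262 in knockout and wild-type macrophages, against 7348 and 5929 in knockout and wild-type monocytes. Ly6g averaged under 2 normalized reads in all 4 groups.

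RNA of C3 itself was lower in knockout cells but not absent. C3 had 1076, 1368, 1390 and 1102 normalized reads in knockout macrophages (mice 6 to 9), against 3262, 4668, 4830 and 3272 in wild-type macrophages (mice 1 to 4). Monocytes held 4624, 5204, 5137 and 4735 in knockout mice, against 16132, 14608, 15269 and 14625 in wild-type mice. Knockout means were 0.308 and 0.325 times the wild-type means in macrophages and monocytes, with adjusted p-values of 0.000215 and 8.81e-08 (limma). A table per gene does not show which exons the remaining reads cover.

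Neither of the G protein-coupled anaphylatoxin receptors, C3ar1 and C5ar1, passed between genotypes. C3ar1 had 15588, 18897, 18396 and 17192 normalized reads in knockout macrophages, against 19689, 19112, 19893 and 19753 in wild-type macrophages. The highest knockout value lay just under the lowest wild-type value, and the wild-type mice were within a few percent of one another. The log2 difference was -0.12 (SE 0.0474, 95% interval -0.23 to -0.02), with an adjusted p of 0.178 (limma), so C3ar1 was not called in macrophages. In monocytes, C3ar1 had 9816, 10770, 11750 and 12936 normalized reads in knockout mice, against 10615, 14460, 12699 and 10938 in wild-type mice. These groups overlapped, and the difference of -0.07 (95% interval -0.25 to 0.11) had an adjusted p of 0.714.

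C5ar1 had 14277, 17744, 16357 and 17313 normalized reads in knockout macrophages, against 18236, 20284, 17403 and 20019 in wild-type macrophages. Monocyte values were 15708, 17730, 18839 and 17226 in knockout mice, against 17009, 22437, 18473 and 20613 in wild-type mice. The ranges overlapped slightly in macrophages and widely in monocytes. Log2 differences were -0.15 (95% interval -0.28 to -0.03, adjusted p = 0.162) in macrophages and -0.12 (95% interval -0.28 to 0.03, adjusted p = 0.413) in monocytes (limma). Neither passed. The 95% intervals of C5ar2 were -0.67 to -0.30 in macrophages and -0.57 to -0.27 in monocytes, the second overlapping that of C5ar1. The 2 receptors were not tested against each other.

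The second C5a receptor had the smallest adjusted p of the 7 genes in the limma fits of both cell types. C5ar2 had 397, 414, 299.7 and 421 normalized reads in knockout macrophages, against 556, 704, 566 and 646 in wild-type macrophages. Its monocyte values were 435, 503, 396 and 442 in knockout mice, against 645, 675, 706 and 640 in wild-type mice. All 8 knockout libraries lay below all 8 wild-type libraries, whichever the cell type. These libraries are not independent animals, since each mouse gave a macrophage and a monocyte library. Knockout macrophages averaged 0.620 times the wild-type level, a log2 difference of -0.49 (SE 0.0846, adjusted p = 0.00562). Knockout monocytes averaged 0.666 times the wild-type level, with a log2 difference of -0.42 (SE 0.0694, adjusted p = 0.00561). These calls held in all 14 alternatives in each cell type, with adjusted p-values up to 0.0225 and 0.0234 (limma). In the authors' deposited table, whose log2 fold is wild type over knockout, C5ar2 stood at 0.69 in macrophages and 0.59 in monocytes, with adjusted p-values of 3.47e-07 and 2.35e-05. In the same deposited table Itgam stood at 0.39 in macrophages (adjusted p = 0.0266) and at 0.63 in monocytes (1.13e-05), and Itgax at 0.32 (0.268) and 0.74 (9.65e-05), so that by the authors' deposited table Itgam had the smallest adjusted p and Itgax the widest difference of the 7 in monocytes.

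The ratio of both C5a receptors was also taken within each library. Per kilobase of exon, C5ar1 exceeded C5ar2 by 60.5 ± 10.9 times in knockout macrophages and by 42.7 ± 2.26 times in wild-type macrophages (SD, n = 4 each). In monocytes the ratio was 54.7 ± 7.82 in knockout mice and 40.9 ± 5.20 in wild-type mice (SD, n = 4 each). Ratios ran from 49.8 to 75.6 in knockout and from 39.9 to 45.5 in wild-type macrophages, and from 48.9 to 66.0 in knockout and from 36.2 to 46.0 in wild-type monocytes, so the genotypes did not overlap in either cell type. The ratio is given as a description.

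Itgam, the alpha chain of complement receptor 3, had 3536, 4170, 3404 and 3817 normalized reads in knockout macrophages, against 4989, 4902, 4369 and 5266 in wild-type macrophages. Monocytes held more, 5739, 7198, 4993 and 6496 in knockout mice, against 8188, 11132, 8561 and 9903 in wild-type mice. Knockout values lay below wild-type values without overlap in both cell types. The knockout mean was 0.764 times the wild-type mean in macrophages (log2 difference -0.27, SE 0.0543, adjusted p = 0.0133) and 0.647 times in monocytes (-0.46, SE 0.0921, adjusted p = 0.0195; limma). The call in macrophages was lost when all 16 libraries shared 1 fit (adjusted p = 0.0728). In monocytes it was lost without knockout mouse 8 (0.0538) and without wild-type mouse 4 (0.0578), and over all alternatives the fitted difference stayed between -0.63 and -0.40. Another annotated gene, Gm49368, shares exons and strand with nearly all of Itgam. It averaged 6.07 normalized reads, and how the authors counted reads in shared exons is not given in the sources used here.

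Itgax, the alpha chain of complement receptor 4, was read in every library of these cells, although they had been sorted as lacking CD11c. It had 5290, 5230, 4115 and 5282 normalized reads in knockout macrophages, against 6122, 6726, 6564 and 5394 in wild-type macrophages. Monocytes held less, 3368, 3045, 1926 and 2256 in knockout mice, against 3564, 4575, 4781 and 4766 in wild-type mice. Knockout libraries were lower without overlap in both cell types, by a narrow gap in each. The monocyte difference was -0.53 (SE 0.119), the knockout mean being 0.599 times the wild-type mean, and it passed with an adjusted p of 0.0386. That call was lost without a filter on low values (adjusted p = 0.0580), without knockout mouse 8 or 9 (0.0716 and 0.124) and without wild-type mouse 2, 3 or 4 (0.105, 0.111 and 0.102). In macrophages the knockout mean was 0.803 times the wild-type mean, and the difference of -0.23 (SE 0.0691) did not pass (adjusted p = 0.0795, limma). It passed only without wild-type mouse 4 (0.0462).

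The shared beta2 chain did not pass in either cell type. Itgb2 had 19090, 23011, 24369 and 21088 normalized reads in knockout macrophages, against 22248, 25556, 22342 and 21957 in wild-type macrophages. Monocytes had 38160, 42299, 40820 and 29829 in knockout mice, against 38702, 45249, 41191 and 42319 in wild-type mice. The groups overlapped in both cell types, with knockout mouse 9 the lowest of the monocytes. Log2 differences were -0.05 (95% interval -0.18 to 0.07, adjusted p = 0.680) in macrophages and -0.12 (95% interval -0.29 to 0.06, adjusted p = 0.510) in monocytes (limma). Per kilobase of exon, Itgam stood at 0.104 ± 0.0131 of Itgb2 in knockout macrophages and 0.129 ± 0.0140 in wild-type macrophages, and at 0.100 ± 0.0244 in knockout monocytes and 0.137 ± 0.0111 in wild-type monocytes (SD, n = 4 each). The ranges of this ratio did not overlap between genotypes in macrophages, and they overlapped in monocytes through knockout mouse 9.

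Cr1l, the gene of Crry, varied little in any group. It had 1505, 1631, 1736 and 1718 normalized reads in knockout macrophages, against 1726, 1692, 1663 and 1639 in wild-type macrophages. In monocytes it had 1296, 1338, 1343 and 1324 in knockout mice, against 1309, 1349, 1415 and 1467 in wild-type mice. Groups overlapped in both cell types. Log2 differences were -0.02 (95% interval -0.12 to 0.07, adjusted p = 0.842) in macrophages and -0.04 (95% interval -0.15 to 0.07, adjusted p = 0.716) in monocytes, and the first turned positive without knockout mouse 6 (0.01).

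**Figure D1:**
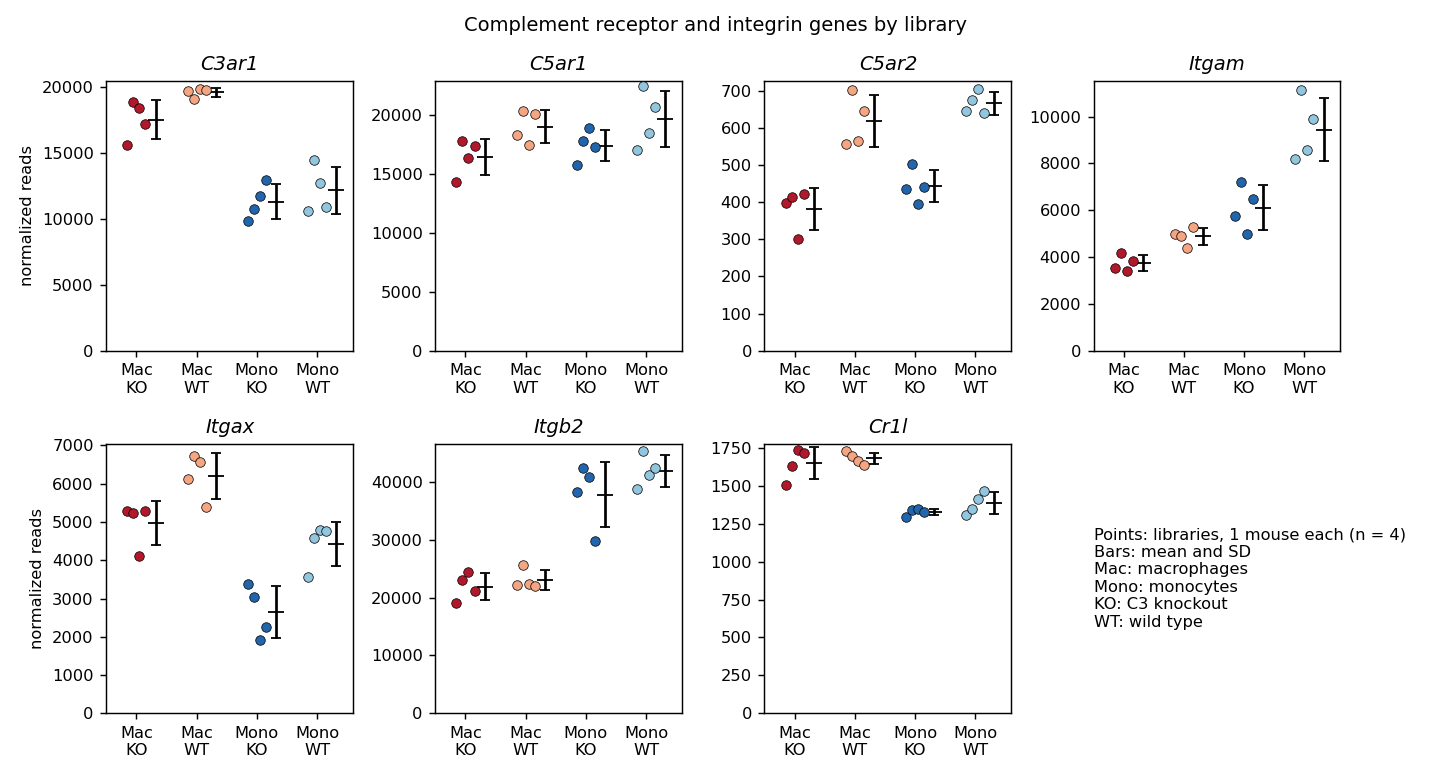
Normalized reads (vertical axes, from 0) of the 7 genes in knockout and wild-type macrophages and knockout and wild-type monocytes; each point is a library and bars give mean and SD (n = 4). C5ar2 and Itgam lie lower in knockout than in wild-type libraries in both cell types, from 299.7 to 421 against 556 to 704 normalized reads for C5ar2 in macrophages.

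In macrophages, 2 of the 7 genes were called lower and 0 higher, against 3.13% of 12568 tested genes called lower and 2.57% called higher. All 7 fitted differences were below 0, as were 49.1% of tested genes, and the median difference was -0.15 over the 7 and 0.00 over all tested genes. The groups did not overlap for 4 of the 7, all lower in knockout, as for 7.03% of tested genes in that direction. In monocytes, 3 of the 7 were called lower and 0 higher, against 1.92% of 12867 tested genes called lower and 1.4% called higher. All 7 differences were again below 0, in cells of the same mice, against 52.8% of tested genes. The median was -0.12 over the 7 and -0.01 over all tested genes. Groups did not overlap for 3 of the 7, against 6.13% of tested genes lower without overlap. Without knockout mouse 8 or without wild-type mouse 4 the monocyte count was 1 of 7, and with all 16 libraries in 1 fit the macrophage count was 1 of 7. In each of these, the gene still called was C5ar2.

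**Figure D2:**
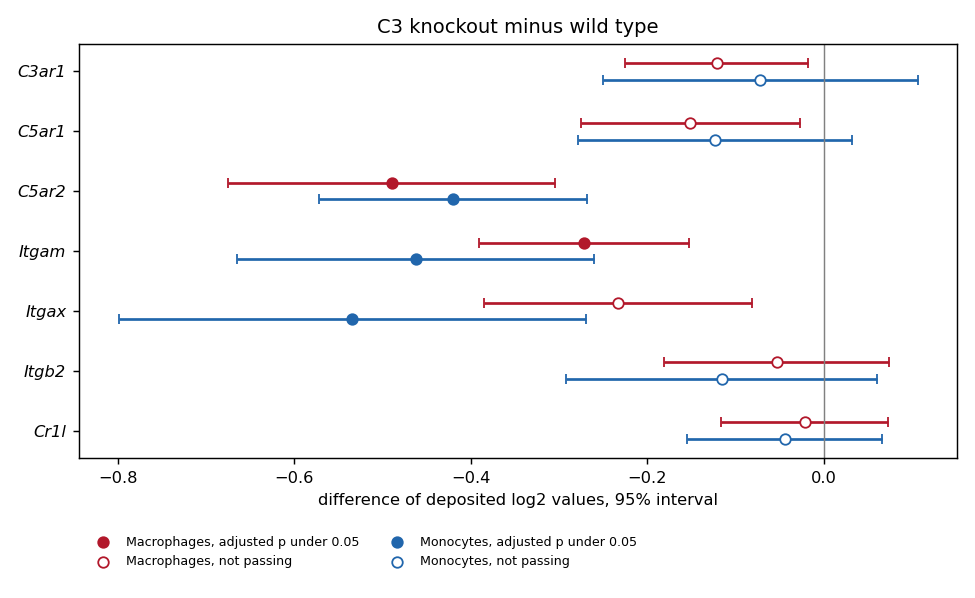
Difference of deposited log2 values, knockout minus wild type (horizontal axis), with 95% intervals from limma for the 7 genes in macrophages (red) and monocytes (blue); filled points passed an adjusted p of 0.05. All points lie left of 0, and C5ar2 lies at -0.49 in macrophages and -0.42 in monocytes.

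Whether the knockout difference itself varied with cell type was tested over all 16 libraries. None of the 7 passed (0 of 7 in limma, 0 at an unadjusted p under 0.05 and 0 with voom), against 0.617% of 13134 genes. The widest gaps were those of Itgax, where the difference in macrophages was 0.30 above that in monocytes (95% interval -0.02 to 0.62, unadjusted p = 0.0625 and adjusted p = 0.476 in limma's fit over all genes), and Itgam (0.19, 95% interval -0.05 to 0.43, adjusted p = 0.576). With each mouse as a block, the unadjusted p-values of Itgax and Itgam became 0.0129 and 0.0232, and their adjusted p-values 0.196 and 0.247. For C5ar2 the estimate was -0.07 (95% interval -0.30 to 0.16, adjusted p = 0.876).

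Between the cell types, the 2 alpha chains ran in opposite directions in both genotypes. Itgam was lower in macrophages than in monocytes, at 0.611 times in knockout mice (log2 difference -0.50, SE 0.0785, adjusted p = 0.000155) and 0.517 times in wild-type mice (-0.69, SE 0.0716, adjusted p = 8.34e-06). Itgax was higher in macrophages, 1.88 times in knockout mice (0.66, SE 0.117, adjusted p = 0.000655) and 1.40 times in wild-type mice (0.36, SE 0.0743, adjusted p = 0.00148; limma). Itgb2, the shared beta chain, was lower in macrophages as Itgam was, at 0.579 times in knockout mice (adjusted p = 9.79e-05) and 0.550 times in wild-type mice (adjusted p = 1.27e-06). Macrophage and monocyte libraries did not overlap for these 3 genes within a genotype, as for 55.2% of tested genes in knockout mice and 57.6% in wild-type mice.

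The alpha chains of complement receptors 3 and 4 were also set against each other within each library. Per kilobase of exon, Itgam stood at 0.721 ± 0.0688 of Itgax in knockout macrophages, against 2.28 ± 0.479 in knockout monocytes (SD, n = 4 each). In wild-type mice the ratio was 0.761 ± 0.129 in macrophages and 2.06 ± 0.268 in monocytes (SD, n = 4 each). Itgax was the more abundant alpha chain in every macrophage library and Itgam in every monocyte library. Between genotypes the ratio overlapped in both cell types. Exon length here is the union of annotated exons, which need not be that of the transcript in use.

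**Figure D3:**
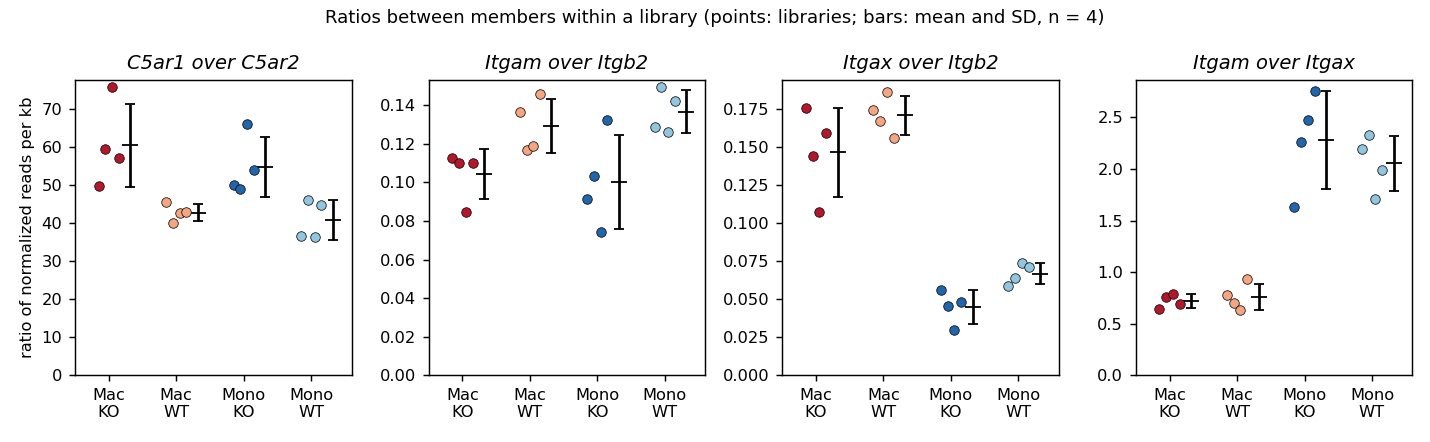
Ratio of normalized reads per kilobase between pairs of the 7 genes (vertical axes, from 0) in each library of the 4 groups, with mean and SD (n = 4). The ratio of C5ar1 to C5ar2 separates the genotypes, at 60.5 in knockout and 42.7 in wild-type macrophages, and that of Itgam to Itgax separates the cell types, at 0.721 in knockout macrophages and 2.28 in knockout monocytes.

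Of the peptide receptors, C3ar1 was higher in macrophages than in monocytes, 1.55 times in knockout mice (log2 difference 0.45, SE 0.0691, adjusted p = 0.000114) and 1.61 times in wild-type mice (0.50, SE 0.0645, adjusted p = 3.83e-05). C5ar1 was 0.945 times in knockout mice (log2 difference -0.06, 95% interval -0.20 to 0.08) and 0.967 times in wild-type mice (-0.03, 95% interval -0.17 to 0.11), and passed in neither. C5ar2 did not pass either, at -0.15 (95% interval -0.34 to 0.04) in knockout mice and -0.08 (95% interval -0.23 to 0.06) in wild-type mice. Cr1l was higher in macrophages, 1.24 times in knockout mice (adjusted p = 0.00253) and 1.21 times in wild-type mice (adjusted p = 0.00152; limma). In each genotype 3 of the 7 genes were called higher and 2 lower. Such calls were common, since 31.0% and 29.6% of tested genes were called higher and lower in knockout mice, and 31.7% and 31.7% in wild-type mice.

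**Figure D4:**
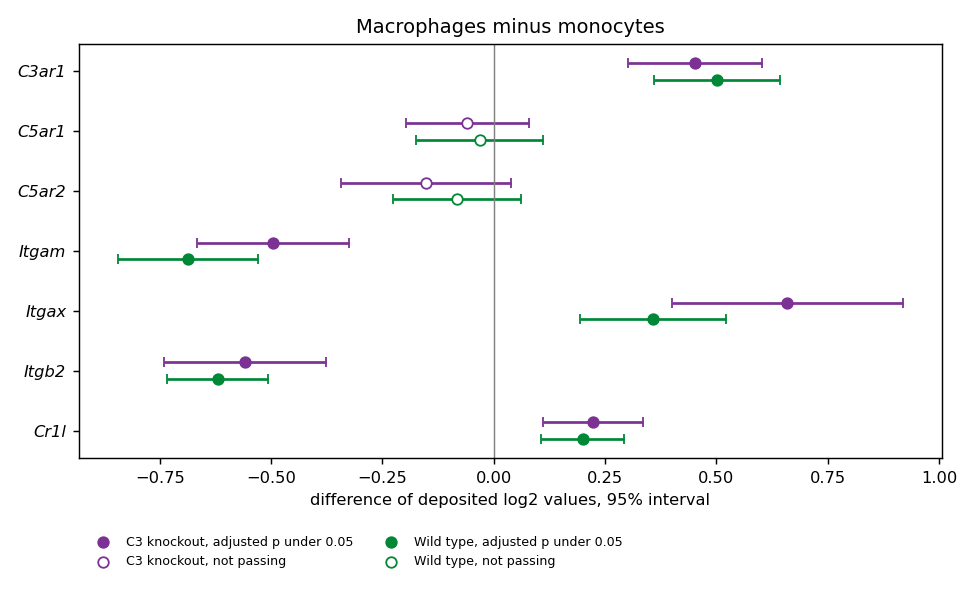
Difference of deposited log2 values, macrophages minus monocytes (horizontal axis), with 95% intervals from limma in knockout (purple) and wild-type mice (green); filled points passed an adjusted p of 0.05. C3ar1, Itgax and Cr1l lie right of 0, Itgam and Itgb2 left of it, and C5ar1 and C5ar2 cross it in both genotypes.

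By level per kilobase, Itgb2 stood first and C5ar1 second in all 4 groups. In knockout macrophages Itgb2 averaged 7172 ± 754 and C5ar1 6390 ± 601 normalized reads per kb (SD, n = 4), with C3ar1 next at 4069 ± 342. Itgax at 1037 ± 120 and Itgam at 743 ± 67.5 followed, and Cr1l at 159 ± 10.2 and C5ar2 at 108 ± 15.8 came last. The first 2 lay within their spread of each other, and the steps below them were wider than the spread. In wild-type macrophages the order was the same except at the end, where C5ar2 at 174 ± 19.6 and Cr1l at 162 ± 3.62 changed places within their spread. In monocytes Itgam stood above Itgax, at 1215 ± 190 against 552 ± 140 in knockout mice and 1880 ± 268 against 921 ± 121 in wild-type mice. By base mean over all libraries, which is not corrected for length, Itgb2 ranked 69, C5ar1 156 and C3ar1 193 of 13134 genes, while C5ar2 ranked 6191.

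The loci of the 3 genes that fell lie on chromosome 7 of GRCm38. C5ar2 (chr7:16234585-16244154) and C5ar1 (chr7:16246743-16259540) lie side by side on the minus strand, and Itgam (chr7:128062640-128118491) and Itgax (chr7:128129547-128150657) lie side by side on the plus strand. The next integrin gene, Itgad (chr7:128154376-128223816, plus strand), starts 3.72 kb after the end of Itgax and encodes CD11d, a further partner of CD18. Itgad passed the filter on low values only through its knockout libraries, so its values are a description with no test between genotypes. Itgad had 54.3, 60.6, 125 and 48.8 normalized reads in knockout macrophages, against 0, 0, 2.77 and 2.54 in wild-type macrophages. In monocytes it had 28.2, 27.7, 42.5 and 23.6 in knockout mice, against 6.18, 7.70, 4.70 and 2.18 in wild-type mice. Every knockout library was above every wild-type library, as can follow for a gene kept only through its knockout libraries. The share of all genes with this pattern is not given here.

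In macrophages, 29 other genes within 500 kb of Itgam passed the filter, Itgad only through its knockout libraries. Itgad aside, Rgs10 alone was called (0.45, adjusted p = 0.000835, limma), a regulator that shortens G protein signals. Over all tested genes 5.7% were called. In monocytes 28 passed the filter, Itgad again only through its knockout libraries, and 3.32% of all tested genes were called. Itgax and Pycard (-0.28, adjusted p = 0.0300), which encodes the inflammasome adaptor ASC, were lower, and Rgs10 (0.77, adjusted p = 0.00532) and Bag3 (0.77, adjusted p = 0.0316), a partner of heat shock proteins, were higher. Median differences of these neighbours were 0.00 in macrophages and 0.01 in monocytes. Around C5ar2, 1 of 17 neighbours was called in macrophages (Meis3) and 0 of 18 in monocytes.

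**Figure D5:**
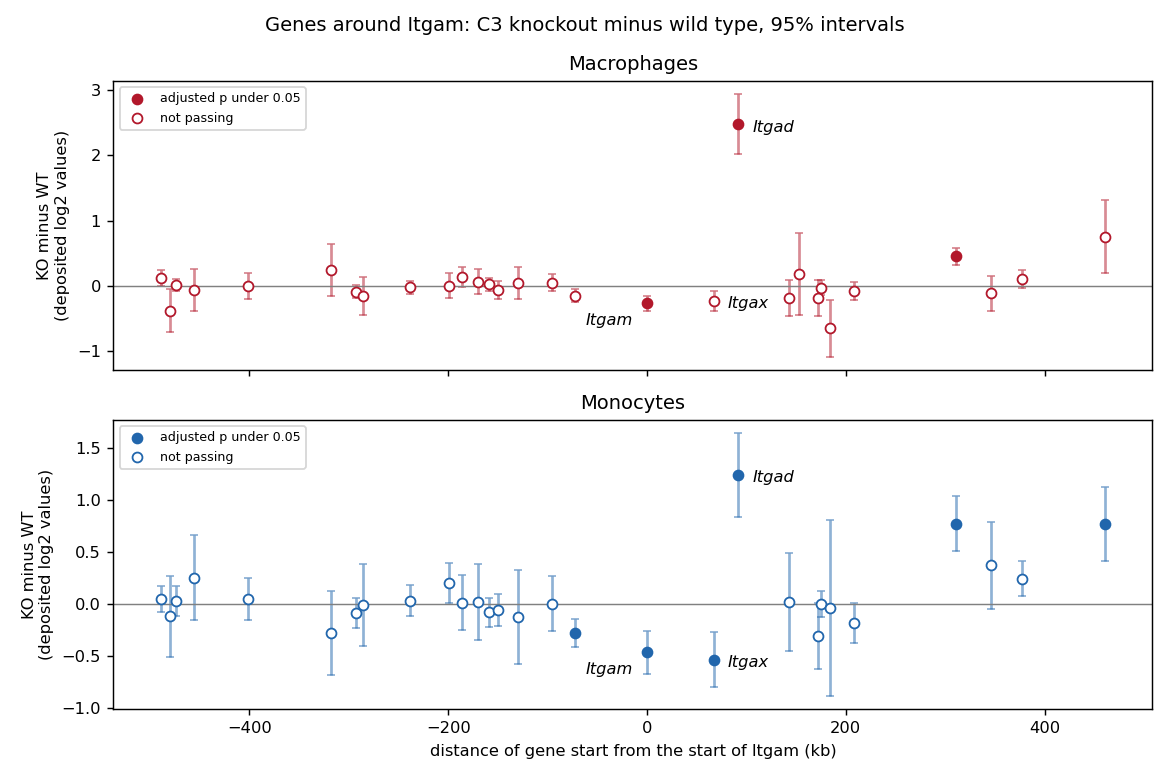
Knockout minus wild-type difference of deposited log2 values (vertical axes) with 95% intervals from limma, for tested genes within 500 kb of the start of Itgam, by distance in kb (horizontal axis); filled points passed an adjusted p of 0.05. Itgam and Itgax lie below 0; Itgad, drawn above 0, passed the filter on low values only through its knockout libraries, so its point is a description.

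Itgal, the alpha chain of LFA-1, is the remaining partner of CD18. It averaged 4974 ± 1017 normalized reads in knockout macrophages and 4190 ± 461 in wild-type macrophages, against 11589 ± 857 in knockout monocytes and 12473 ± 982 in wild-type monocytes (SD, n = 4). It passed in no comparison of genotypes, and was lower in macrophages than in monocytes at 0.429 times in knockout mice (adjusted p = 3.03e-06) and 0.336 times in wild-type mice (adjusted p = 3.68e-08). The machinery that switches beta2 integrins on and carries their signals showed no call between genotypes: 21 genes were listed and 20 matched the matrix, and 0 of the 20 passed in either cell type with limma, with voom or in the authors' deposited table, against 5.7% and 3.32% of all tested genes in macrophages and monocytes with limma. At an unadjusted p under 0.05 there were 2 in macrophages and 1 in monocytes. Between cell types, 1 of the 20 was higher and 11 lower in macrophages of knockout mice, and 2 were higher and 13 lower in wild-type mice, where 29.6% to 31.7% of all tested genes were called in each direction. Among them were Fgr, a Src family kinase of integrin signalling (0.436 times in knockout mice, adjusted p = 2.90e-08), Pxn, the adhesion adaptor paxillin (0.506 times, adjusted p = 4.72e-07), and Vcl, which encodes vinculin (0.432 times, adjusted p = 1.22e-05).

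Of 20 genes that carry or end the signal of the peptide receptors, 4 were called in knockout macrophages and 0 in knockout monocytes, against 5.7% and 3.32% of all tested genes. Gna15, the G protein subunit that lets C5a and C3a receptors reach phospholipase C in blood cells, averaged 2800 ± 137 normalized reads in knockout and 3399 ± 105 in wild-type macrophages (SD, n = 4; log2 difference -0.21, adjusted p = 0.0106). Pik3cg, the kinase subunit driven by G proteins, was also lower (0.869 times, adjusted p = 0.0497). Plcb2, a phospholipase C, and Grk6, a receptor kinase, were higher at 1.22 times (adjusted p = 0.0152) and 1.29 times (adjusted p = 0.0306; limma). Of these, Plcb2 alone kept an adjusted p under 0.05 in all alternatives, the highest being 0.0439. In monocytes 4 of the 20 had an unadjusted p under 0.05, 0 were called with voom and 3 in the authors' deposited table. Between cell types most of the list was lower in macrophages, 12 lower and 4 higher in knockout mice and 14 lower and 4 higher in wild-type mice, again against 29.6% to 31.7% of all tested genes in each direction. Rgs18, which ends G protein signals, averaged 27.9 normalized reads in knockout macrophages against 545.8 in knockout monocytes, and Grk5 averaged 34.3 against 443.2.

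Among 6 other chemoattractant receptors, 1 passed in each cell type, against 5.7% and 3.32% of all tested genes in macrophages and monocytes. In each cell type 3 of the 6 had an unadjusted p under 0.05 (limma). Ltb4r1, the leukotriene B4 receptor, had 263, 310, 446 and 277 normalized reads in knockout macrophages, against 111, 153, 112 and 137 in wild-type macrophages. The groups did not overlap, and the knockout mean was 2.53 times the wild-type mean (log2 difference 0.77, SE 0.105, adjusted p = 0.00124). Monocytes held far more of it, 3162 to 4493 normalized reads in knockout mice and 3083 to 5312 in wild-type mice, with overlap. The difference between cell types in the knockout effect was 0.76, with an adjusted p of 0.0687, and of 0.00373 with each mouse as a block (limma). Fpr1, the formyl peptide receptor, had 862, 1130, 969 and 516 normalized reads in knockout monocytes, against 1790, 1870, 1528 and 1353 in wild-type monocytes. It passed with an adjusted p of 0.0435 (0.532 times), which over the alternatives ran up to 0.115, and 0 of the 6 were called in monocytes in the authors' deposited table. In macrophages Fpr1 had 220, 511, 316 and 164 normalized reads in knockout mice, against 566, 736, 468 and 490 in wild-type mice. Those groups overlapped through knockout mouse 7, and the log2 difference of -0.67 (95% interval -1.18 to -0.16) did not pass (adjusted p = 0.141). The difference between cell types in the knockout effect on Fpr1 was 0.04 (95% interval -0.59 to 0.66, adjusted p = 0.984; limma).

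Of 7 ligand genes, 4 were abundant enough to test. Over all tested genes, 5.7% were called in macrophages and 3.32% in monocytes. Besides C3, Icam2, a counter-receptor of beta2 integrins, was called in macrophages, at 239.7 ± 34.6 normalized reads in knockout and 166.5 ± 22.4 in wild-type mice (SD, n = 4; adjusted p = 0.0488, up to 0.125 over the alternatives). In monocytes C3 alone was called, 3 of the 4 had an unadjusted p under 0.05, and 2 were called in the authors' deposited table. Icam1 had 8194 to 10396 normalized reads in knockout and 7004 to 7951 in wild-type monocytes, without overlap (log2 difference 0.19, adjusted p = 0.137). F11r, whose product JAM-A is a counter-receptor of LFA-1, had 4123 to 9050 in knockout and 8796 to 11586 in wild-type monocytes (-0.50, adjusted p = 0.100; limma). Hc, the gene of C5, averaged under 7 normalized reads in every group. Icam1, the main counter-receptor, was called between cell types, at 0.658 times in macrophages of knockout mice (adjusted p = 0.000215) and 0.795 times in wild-type mice (adjusted p = 0.00261).

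Of 14 other complement receptors and surface regulators in the matrix, 6 were abundant enough to test. The share called between genotypes over all tested genes was 5.7% in macrophages and 3.32% in monocytes. Calr, whose product calreticulin binds C1q at the cell surface, was called in macrophages, at 1.25 times in knockout mice (adjusted p = 0.0253), and was not called in the authors' deposited table (adjusted p = 0.206). None passed in monocytes (0 of 6 with limma, 0 at an unadjusted p under 0.05, 0 with voom and 0 in the authors' deposited table). The classical receptors Cr2 and Vsig4 averaged under 5 normalized reads in every group, as did Cd55, and Cd46 under 10. Cd59a, the inhibitor of the membrane attack complex, averaged 85.2 and 99.2 normalized reads in knockout and wild-type macrophages, against 8.98 and 5.60 in knockout and wild-type monocytes.

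Other markers differed between genotypes beside these genes. Over all tested genes, 3.13% were called lower and 2.57% higher in knockout macrophages. In knockout monocytes the shares were 1.92% and 1.4%. The 4 red cell genes were all called lower in knockout macrophages. Over the alternatives to the limma fit, adjusted p-values there reached 0.0254 for Hbb-bt, 0.0443 for Hba-a2, 0.0599 for Hba-a1 and 0.0802 for Alas2. Summed normalized reads of the 4 were 145.1 to 241.7 in knockout against 427.5 to 1272 in wild-type macrophages. In monocytes the sums were 308.7 to 1274 in knockout against 1430 to 3569 in wild-type mice. Sums of 11 dendritic cell genes were 691.5 to 759.4 in knockout and 418.6 to 553.0 in wild-type macrophages, and 1361 to 2338 in knockout and 711.1 to 1401 in wild-type monocytes. Kmo was the one called in macrophages, higher in knockout mice. Cd209a had 128 to 790 normalized reads in knockout monocytes and 9.12 ± 5.63 (SD, n = 4) in wild-type monocytes. It passed the filter on low values only through its knockout libraries, so it is given with no test. Sums of 13 neutrophil genes were 1689 to 2514 in knockout and 2402 to 3648 in wild-type macrophages, and 7323 to 15046 in knockout and 8954 to 12779 in wild-type monocytes, with Ly6g at 0 in every knockout macrophage library and the median difference of the tested genes of that list -0.27 in macrophages and -0.37 in monocytes. In monocytes Retnlg was called higher in knockout mice (adjusted p = 0.00794), while S100a8 had 27.6 to 856 normalized reads in knockout and 1289 to 2560 in wild-type monocytes and did not pass (adjusted p = 0.187; limma). Sums of 12 lymphocyte genes were 175.5 to 247.4 in knockout and 161.6 to 235.6 in wild-type macrophages, and 232.4 to 449.0 in knockout and 142.5 to 607.7 in wild-type monocytes. In macrophages the B cell gene Cd79b was higher in knockout mice (140 ± 26.8 normalized reads, against 51.5 ± 8.61 in wild-type mice; adjusted p = 0.000741) and Cd4 lower, at 0.388 times the wild-type mean (adjusted p = 0.00898; SD, n = 4 each, limma). Sums of 12 fibroblast and sarcoma genes were 278.5 to 1389 in knockout and 1197 to 3508 in wild-type macrophages, and 1588 to 7793 in knockout and 4824 to 9989 in wild-type monocytes. For 11 macrophage genes the sums were 596112 to 727756 in knockout and 759309 to 895096 in wild-type macrophages, without overlap. Apoe alone averaged 305479 and 451550 there. In monocytes the sums were 179525 to 213956 in knockout and 179585 to 242685 in wild-type mice. Of the 11, 4 were called lower in knockout macrophages. Their adjusted p-values reached 0.756 for Mrc1, 0.0379 for Apoe, 0.0765 for Gpnmb and 0.0948 for Mertk over the alternatives. Sums of 9 monocyte genes were 53821 to 71078 in knockout and 45445 to 74391 in wild-type macrophages, and 234044 to 303634 in knockout and 265849 to 331103 in wild-type monocytes. Of the 9, Hp alone was called, lower in knockout monocytes (adjusted p = 0.00564). Of 11 tested genes induced by dissociation Ier2 was called lower in knockout cells of both types and Egr1 in knockout monocytes. Over the alternatives to the limma fit, adjusted p-values of Ier2 reached 0.0265 in macrophages and 0.109 in monocytes. That of Egr1 in monocytes reached 0.0338. The part of these cells and genes in the differences of the 7 genes was not tested.

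The genes whose pattern over the 16 libraries lay closest to each receptor, by root mean square difference of centred log2 values, are given as a description. C3ar1 was closest to Snx5 (0.0588), Tpp1 (0.0752) and Idua (0.0810), where its own deviation was 0.260. Tpp1 and Idua encode lysosomal enzymes. C5ar2 was closest to Nr1h3 (0.117), which encodes the nuclear receptor LXR alpha, then to Gpr160 and Gm13212 (0.121 each), against its own 0.255. Itgam was closest to Bin2 (0.123), Fam162a (0.126) and Stk24 (0.129), against its own 0.368. Itgax was closest to Tmem273 (0.142), Aamdc (0.146) and Hfe (0.146), against its own 0.358. For Itgb2 the nearest were Taf7, Havcr2 and Irak2 (0.0690 to 0.0705), for C5ar1 Cln8, Ftl1 and Atp6v1h (0.0652 to 0.0685) and for Cr1l Commd8, Cat and Anxa5 (0.0364 to 0.0455). C5ar1 and Cr1l varied little themselves (0.111 and 0.114).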

How the data were processed

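RNA was measured in 16 libraries of sorted tumour macrophages and monocytes, 4 per group, grouped by their titles. Libraries were made from 5 ng of RNA with SMART-Seq v4, per the labels' protocols, a kit that does not mark strand. The build GRCm38 and the tools STAR 2.7.2b, bcl2fastq 2.19.0.316 and DESeq2 are named in the submitters' processing notes. How reads were counted per gene is not given.

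A matrix of log2 values for 30819 genes was deposited by the authors. The transform is named in no header, and the values followed a regularized log2. Tables of wild type over knockout, 1 per cell type, were deposited too. They hold the authors' base mean, a signal named in the headers and taken here as size-factor-scaled reads averaged over all libraries. They further hold the authors' log2 fold changes with standard errors, the Wald statistic (a score) and each p-value before and after adjustment, as deposited. The number of columns that belonged to no sample was 0.

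The transform was inverted with that base mean to recover reads: 82.4% of values of 20443 genes lay within 0.05 of a whole read, and the base mean was met within 1% for 99.8% of genes. Among the most abundant genes the share was 44.7%, with a median distance of 0.00223% of the value. Size factors were inferred from 317 genes with reads in 1 library only. The lowest total of such genes in each library was assumed to be 3 reads, and all recovered reads rest on that assumption.

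The design had allowed for counts or linear values; the files held log2 values, so limma 3.58.1 (R 4.3.3, trend and robust) was fitted to them. Genes needed a linear value of 10 in at least 4 libraries. Each comparison was fitted to its 8 libraries, and the one of knockout effects between cell types to all 16. The inversion and the fit were tested on data with known answers. There, more of limma's calls were false than the adjusted threshold sets. No 2 libraries of a group were copies (chi-square per gene 11.6 to 48.7). Mouse numbers pair macrophage and monocyte libraries, since the titles name the same mouse. Deviations from the group means correlated at 0.052 to 0.211 (knockout) and 0.031 to 0.417 (wild type) within a mouse, against -0.227 to 0.136 and -0.323 to 0.188 between mice.

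The 7 genes and all gene lists were chosen with earlier results of these data known. Besides the 7, the text names C3, gate genes, up to 4 called genes per list by adjusted p, the 3 most alike genes, and neighbours within 500 kb; genes named for low levels, Itgal and single marker genes were picked after their values were seen. Alternatives were no filter, voom on recovered reads with TMM scaling, TMM scaling of the deposited values, log2(normalized reads + 1), 1 fit of all libraries, the authors' deposited table, a block for the mouse, and leaving out each library.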

Additional observations from a re-analysis of the deposited data

Results flagged for a closer look

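Dixon's ratio was taken over the 4 libraries of each group for 15 genes, 60 groups in all. In 4 groups it exceeded the 95% critical value for 4 samples. Chance alone gives about 1 in 20, so the number flagged was near the chance share. Itgax in knockout mouse 8 was far below the other knockout macrophages, at 4115 normalized reads against 5230 to 5290. Itgax in wild-type mouse 1 was far below the other wild-type monocytes, at 3564 against 4575 to 4781. Itgb2 in wild-type mouse 2 was far above the other wild-type macrophages, at 25556 against 21957 to 22342. Itgad in knockout mouse 8 was far above the other knockout macrophages, at 125 against 48.8 to 60.6. Mouse 8 thus had the lowest Itgax and the highest Itgad of the knockout macrophages, and likewise of the knockout monocytes, at 1926 and 42.5 normalized reads.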

How the results depend on the processing

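Over the 7 genes, 519 of the values under alternatives kept their direction and their side of the threshold, 9 lost a call, 1 gained one and 10 changed sign, all of the last being differences near 0 that were not called. Those were Cr1l in knockout macrophages without mouse 6 (0.00903; range on leaving out 1 library -0.0404 to 0.00903), and C5ar1 between cell types of wild-type mice with TMM scaling (0.00058) and without monocytes of mouse 2 (0.0168; range -0.0793 to 0.0168). For the difference of knockout effects they were C5ar1 without macrophages of mouse 6 (0.0188), without monocytes of mouse 8 (0.000806) and without monocytes of mouse 1 (0.0200; range -0.0761 to 0.0200), C5ar2 without macrophages of mouse 8 (0.00788; range -0.107 to 0.00788), Itgb2 without monocytes of mouse 9 (-0.0167; range -0.0167 to 0.107), and Cr1l with voom (-0.00409) and TMM scaling (-0.0156). C3, outside the 7, also changed sign there, with voom (-0.0999) and log2(normalized reads + 1) (-0.0612). The cause was not tested.

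Leaving out 1 library gave 458 to 656 genes called in knockout macrophages (717 with all; 458 without wild-type mouse 2), 237 to 459 in knockout monocytes (427; 237, 243, 282, 263 and 280 without knockout mice 8 and 9 and wild-type mice 2, 3 and 4), 7051 to 7356 and 7351 to 7782 between cell types of knockout and wild-type mice, and 48 to 125 for the difference of effects (81; 48 without macrophages of mouse 3, 125 without monocytes of mouse 7). Members called then ran from 2 to 3, 1 to 3, 5 to 5, 5 to 5 and 0 to 0. With all 16 libraries in 1 fit, 981 genes were called in monocytes and 1 of the 7 in macrophages. The authors' deposited table called 1329 genes in monocytes. The replicate block, pairing the libraries of a mouse, called 251 genes for the difference of effects, and changed no call of the 7. TMM scaling moved no library by over 0.04. Each of the 7 genes had at least 283 reads in every library, and groups held 4 animals.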
